A study of Homo sapiens with 12 samples.

Results

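The genes described here are NR0B1, the proteins SNW1 and RBM45 that were reported to sit with it in 1 protein complex in KEAP1-mutant lung cancer cells, and NR0B2, its only close relative in the nuclear receptor family. They were taken by symbol and are 4 of the 57815 genes measured. RNA was sequenced from 3 established human lung cancer lines that all carry a KEAP1 mutation, which are the adenocarcinoma lines A549 and H2023 and the large cell carcinoma line H460. Each line was transfected with a control siRNA or with 1 of 2 siRNAs against NRF2, named siRNA 28 and siRNA 30, and harvested 48 h later. Each line thus has 2 control libraries, which were biological duplicates, and 2 knockdown libraries, 1 for each siRNA, so the spread within a knockdown group holds the difference between the siRNAs as well as that between cultures. A549 RNA was depleted of ribosomal RNA and the other lines were polyA selected, and A549 was grown in high-glucose medium and the others in low-glucose medium, so levels in A549 were not tested against those in the other lines.

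NRF2, encoded by NFE2L2, is the transcription factor that induces antioxidant and detoxifying enzymes, and KEAP1 is the adaptor that marks it for degradation, so NRF2 accumulates where KEAP1 is mutated. NR0B1, also called DAX1, is an orphan nuclear receptor that lacks the usual DNA-binding domain, acts mainly as a corepressor and is best known from adrenal and gonadal development. NR0B2, also called SHP, has the same unusual build and is known from the feedback control of bile acid synthesis in the liver. SNW1, also called SKIP, is a spliceosome subunit and a coregulator of nuclear receptors, SMAD proteins and NOTCH, and RBM45 is an RNA-binding protein found in inclusions in neurodegenerative disease and reported to bind KEAP1.

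Values are FPKM, a level per transcript length and library size, and differences were tested with limma on log2(FPKM + 1) with Benjamini-Hochberg adjustment over all genes tested. A gene was tested in a line when it reached 1 FPKM in at least 2 of the 4 libraries, and was called at an adjusted p under 0.05. The 5 epithelial markers KRT8, KRT18, KRT19, EPCAM and CDH1 summed to 1142 FPKM or more in every library, a sum carried by the keratins. EPCAM and CDH1 were nearly absent in H460, at 0.222 to 1.19 and 0.149 to 1.17 FPKM. By contrast the 4 alveolar markers NKX2-1, SFTPA1, SFTPB and SFTPC were each under 1 FPKM in the mean of each of the 6 groups. Between 12732 and 13909 genes reached 1 FPKM in a library, and among genes under 0.05 FPKM the value of 1 read in a library was 0.931 to 1.08 times that in the first control library of its line. Of the summed FPKM, 35.2 to 44.3% lay in the top 10 genes in A549 and 14.8 to 21.2% in H2023. In H460 this share was 10.4 and 13.5% in control and 19.3 and 24.0% in knockdown libraries, and its part in the H460 results was not tested beyond the scaling alternatives.

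NR0B1 (ENSG00000169297.6) lies on the minus strand of chromosome X at 30322323 to 30327507 (GRCh37, the build of the files). The 250 bases before its annotated start are shown because NR0B1 is the member whose transcript moved with NRF2 in all 3 lines. They come from the RefSeq promoter table (GRCh38.p14, chrX:30309391-30309640, minus strand), contain 65.2% G and C, and are written in the direction of transcription with the single TATAAA in capitals.

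NR0B1 promoter: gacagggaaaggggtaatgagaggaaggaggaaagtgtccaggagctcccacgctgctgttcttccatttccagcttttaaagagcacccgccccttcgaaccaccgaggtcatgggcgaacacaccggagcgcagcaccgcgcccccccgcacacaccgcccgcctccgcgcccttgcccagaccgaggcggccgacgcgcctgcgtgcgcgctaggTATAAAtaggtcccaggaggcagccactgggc

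The TATAAA stood 32 to 27 bases before the start, counted as -32 to -27, and 6.80% of the 35116 promoters in the table hold one in the same 250 bases. The core of the antioxidant response element, the element that NRF2 binds with a small MAF protein, was searched as TGACNNNGC on both strands. It was not found in the 300-base promoter windows of NR0B1, SNW1 or RBM45, and 13.3% of all windows of that length held it. Nor was it found in those of NQO1 and GCLC, which the study takes as representative NRF2 targets. Of its other such targets, GCLM held 1, and the TXNRD1 windows held 2 and 1. In windows of 10000 bases centred on the gene start in GRCh37, 96.9% of 19390 protein-coding genes held at least 1 core, with a median of 4, so a match there is common. NR0B1 held 2, SNW1 1, RBM45 3 and NR0B2 3. Both NR0B1 cores lie in its coding exons, on the strand opposite to the gene. Both matches of NR0B1 are printed below, and for SNW1 and RBM45 the match nearest the gene start, with 6 flanking bases on each side and the core in capitals. The nearest of 2 matches of NQO1, the NADPH quinone reductase taken as the classical NRF2 target, is shown for comparison, and those of NR0B2, which was too low to be tested, are not printed.

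NR0B1 coding exon, base 827 from the gene start, chrX:30326673-30326681: agtactTGACGAAGCgcagcg

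NR0B1 coding exon, base 4760 from the gene start, chrX:30322740-30322748: ccatgcTGACTGTGCcgatga

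SNW1 upstream, base -496, chr14:78228038-78228046: agggtaTGACAAGGCtgaaat

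RBM45 upstream, base -635, chr2:178976516-178976524: tctgctTGACTAGGCttgatc

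NQO1 upstream, base -347, chr16:69760910-69760918: tcacagTGACTCAGCagaatc

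These matches describe the letters present and are not measured binding sites. The study does report an enhancer mark, histone acetylation, at the NR0B1 locus, and describes it as restricted to NRF2-activated lung cancer cells. It also marks an NRF2 binding peak at that locus, from public binding data. Whether any match printed above lies within that peak was not tested, so the matches do not show where NRF2 binds near NR0B1.

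NR0B1 fell in all 3 lines to between 3.75 and 9.23% of its control level. In A549 it was at 35.1 and 29.97 FPKM in the control libraries, 2.23 FPKM with siRNA 28 and 2.69 FPKM with siRNA 30. In H2023 the control libraries held 53.4 and 47.2 FPKM, and the knockdown libraries 2.18 FPKM with siRNA 28 and 1.59 FPKM with siRNA 30. In H460 they held 80.0 and 87.4 FPKM, and 8.48 and 6.97 FPKM. The knockdown libraries were thus low with either siRNA, and the groups did not overlap in any line. Both knockdown libraries lay below both control libraries for 20.5, 22 and 31.6% of all genes tested in A549, H2023 and H460, so separation alone is common.

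The group means of NR0B1 were 32.5 ± 3.62 FPKM in control and 2.46 ± 0.324 FPKM in knockdown A549 cells, 50.3 ± 4.39 and 1.89 ± 0.417 FPKM in H2023, and 83.7 ± 5.21 and 7.73 ± 1.07 FPKM in H460 (SD, n = 2 each). These were 13.2-, 26.6- and 10.8-fold differences. On the log2(FPKM + 1) scale the NR0B1 difference was -3.28 ± 0.16 in A549 (SE, limma adjusted p = 0.00286), -4.16 ± 0.21 in H2023 (adjusted p = 0.00578) and -3.28 ± 0.23 in H460 (adjusted p = 0.00601). Of all genes tested, 0.554% were called lower and 0.122% higher in A549, 0.583 and 0.327% in H2023, and 6.86 and 7.12% in H460. With mitochondrial transcripts left out, the 922 genes lower and 957 higher in H460 became 583 and 1189. Without the first H2023 control library the adjusted p in H2023 was 0.0551, and without the first or the second H460 control library that in H460 was 0.0832 or 0.0627, with differences of -4.07, -3.35 and -3.22. The calls of these lines as a whole rested on those libraries. By limma, 0 genes were called in H460 without its first control library (2275 at an unadjusted p under 0.05), 4 were lower and 1 higher without its second (2586), and 0 were called in H2023 without its first (981), so each call given below for H2023 or H460 alone was lost without the first control library of that line.

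In 1 fit of all 12 libraries the average NR0B1 difference over the lines was -3.57 ± 0.11 (SE, limma adjusted p = 6.81e-08, n = 12 libraries), with the smallest p of 11571 genes, of which 29.7% were called in either direction. It was lower in 6 of 6 knockdown libraries than in both control libraries of the same line. An exact two-sided permutation test of the mean within-line difference, over all arrangements of the labels within lines, gave p = 0.00926, which is the smallest it can give. The F test of a difference between the lines had an adjusted p of 0.110 (limma, 2.51% of genes called). A549 minus H2023 was 0.88 (95% interval 0.30 to 1.46, limma adjusted p = 0.659), H2023 minus H460 was -0.87 (interval -1.45 to -0.29, adjusted p = 0.0880) and A549 minus H460 was 0.01 (interval -0.57 to 0.59, adjusted p = 0.995). Before adjustment the fall was thus larger in H2023 than in either other line, and no pair differed after adjustment over all genes.

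The plot of the members by library shows these levels together with those of the other members.

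**Figure D1:**
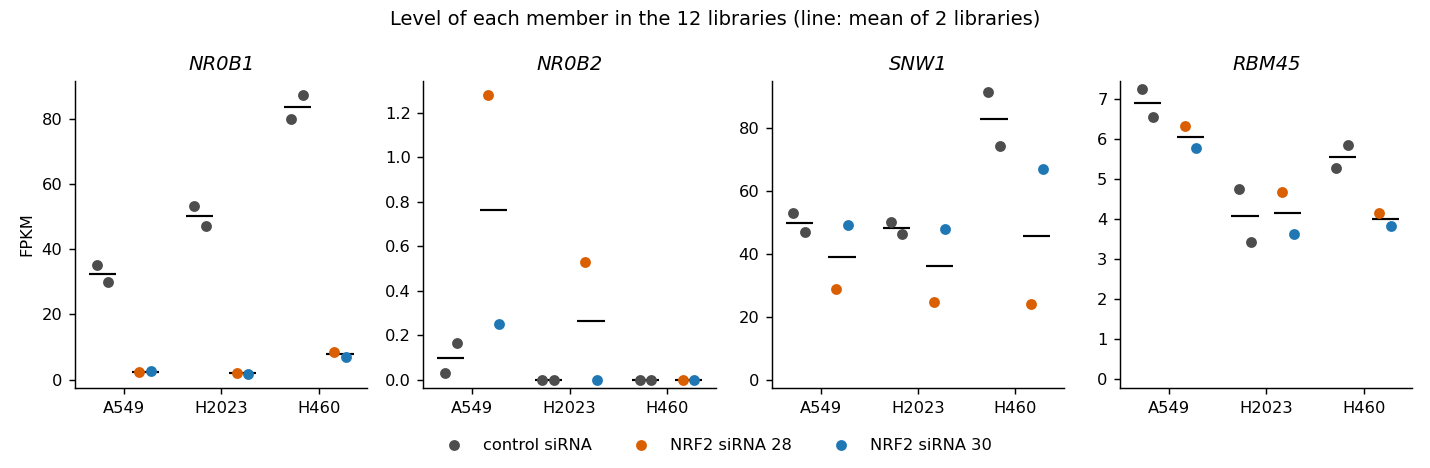
FPKM of NR0B1, NR0B2, SNW1 and RBM45 (1 panel each, linear axes from 0 with their own ranges) in the 12 libraries, by line, with control siRNA in grey, NRF2 siRNA 28 in orange and NRF2 siRNA 30 in blue, and a horizontal line at the mean of each pair. NR0B1 is between 29.97 and 87.4 FPKM in control libraries and between 1.59 and 8.48 FPKM with either NRF2 siRNA, whereas SNW1 is low with siRNA 28 and close to the control libraries with siRNA 30 in A549 and H2023.

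NFE2L2, the gene that both siRNAs target, was at 38.2 and 30.9 FPKM in A549 control libraries against 5.31 and 7.84 FPKM with siRNA 28 and siRNA 30. It was at 120.0 and 118 against 7.74 and 6.80 FPKM in H2023, and at 144 and 99.5 against 6.54 and 12.2 FPKM in H460. The remaining NFE2L2 was 19.0, 6.10 and 7.68% of control in A549, H2023 and H460, and that of NR0B1 was 7.55, 3.75 and 9.23%, a smaller share than that of the targeted transcript in A549 and H2023. In H460 it was larger with siRNA 28 (10.1 against 5.36%) and smaller with siRNA 30 (8.33 against 9.99%). Over the 12 libraries, after subtraction of each line's mean, NR0B1 and NFE2L2 had a Pearson r of 0.974, which is given as a description because both genes were read in the same libraries.

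NR0B1 was low with either siRNA, and a difference between them was not detectable. Between siRNA 28 and siRNA 30 the NR0B1 difference was 0.12 ± 0.19 (SE, 6 knockdown libraries, 95% interval -0.35 to 0.58, limma adjusted p = 0.755). The percentage of genes called in that comparison was 0, with 2853 of 15716 genes at an unadjusted p under 0.05 (limma) and 1797 genes called in 1 fit of all 12 libraries that has a mean for each line and siRNA (15.5% of 11571). In that fit, which was chosen after the values were seen for the comparison of each siRNA with control, NR0B1 differed from control by -3.51 ± 0.11 with siRNA 28 (adjusted p = 1.53e-06) and by -3.63 ± 0.11 with siRNA 30 (adjusted p = 1.29e-06), where 36.1 and 37.1% of genes were called. Each line and siRNA is 1 library in that fit, so its errors come from the 3 control pairs alone and hold no spread among knockdown libraries.

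Between the polyA-selected lines, control cells had less NR0B1 in H2023 than in H460. The difference in control level, H2023 minus H460, was -0.72 ± 0.21 (SE, limma adjusted p = 0.0323), with 28.9% of 12408 genes called. This call was lost without any 1 of the 4 control libraries (-0.81 to -0.64, adjusted p between 0.113 and 0.200), with scaling to median ratios (-0.61) and with mitochondrial transcripts left out (-0.51). In A549 the control level of 32.5 FPKM was below both, under the other library protocol.

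SNW1 (ENSG00000100603.9, chromosome 14 at 78183942 to 78227550, minus strand) was low in the 3 libraries with siRNA 28 and nearer its control level in those with siRNA 30. In A549 SNW1 was at 52.9 and 46.8 FPKM in control libraries, 28.7 FPKM with siRNA 28 and 49.2 FPKM with siRNA 30. In H2023 it was at 49.9 and 46.4 FPKM in control, 24.5 FPKM with siRNA 28 and 47.8 FPKM with siRNA 30. In H460 it was at 91.5 and 74.1 FPKM in control, 24.1 FPKM with siRNA 28 and 66.9 FPKM with siRNA 30. The 3 siRNA 28 libraries were below both control libraries of their line, at 57.5, 50.9 and 29.1% of the control mean, and the siRNA 30 libraries were at 98.7, 99.3 and 80.7%, within the range of the control libraries in A549 and H2023 and below it in H460.

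Tested with both siRNAs as 1 group, SNW1 was not called in any line. The differences were -0.40 in A549 (limma adjusted p = 0.582), -0.48 in H2023 (adjusted p = 0.514) and -1.01 in H460 (adjusted p = 0.176), and the average was -0.63 ± 0.25 (SE, adjusted p = 0.0866, n = 12 libraries). The exact permutation test within lines, run on 5 genes and not adjusted for their number, gave p = 0.0463 for SNW1. Without the siRNA 30 library, SNW1 passed the threshold in H2023 (-0.94, limma adjusted p = 0.0114) and in H460 (-1.73, adjusted p = 0.00971) and not in A549 (-0.77, adjusted p = 0.0856). These fits set 1 library against 2, so the lone library is assumed to vary like the control pair, and they called 4.78, 9.92 and 1.03% of all genes lower in H2023, H460 and A549.

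Tested between the siRNAs in the 6 knockdown libraries, SNW1 was lower with siRNA 28 by 1.04 on the log2 scale (-1.04 ± 0.17 SE, 95% interval -1.46 to -0.63), which had an adjusted p of 0.126 (limma) and ranked 116 of 15716 by p. In the fit with a mean for each line and siRNA, whose errors come from the control pairs alone, the same difference had an adjusted p of 0.00186. There SNW1 differed from control by -1.15 ± 0.11 with siRNA 28 (limma adjusted p = 0.000221) and by -0.11 ± 0.11 with siRNA 30 (adjusted p = 0.460, interval -0.35 to 0.14). By line the siRNA 28 differences of SNW1 were -0.77 (A549), -0.94 (H2023) and -1.73 (H460), a spread that the error of ± 0.11 leaves out. NR0B1 and NFE2L2 were low in all 6 knockdown libraries, whereas SNW1 was low in the 3 with siRNA 28.

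**Figure D2:**
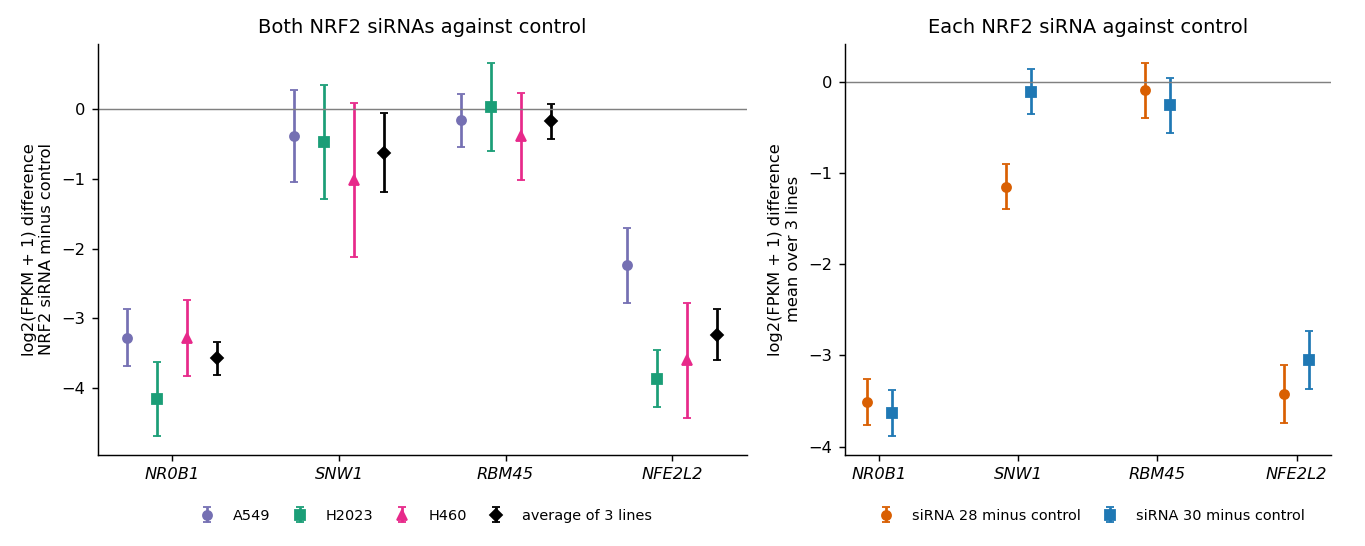
Differences on the log2(FPKM + 1) scale with 95% intervals from limma for NR0B1, SNW1, RBM45 and NFE2L2, with NRF2 siRNA minus control in each line and on average (left) and each NRF2 siRNA minus control averaged over the 3 lines (right, with intervals from the control pairs alone). NR0B1 and NFE2L2 lie far below 0 with both siRNAs (NR0B1 at -3.51 and -3.63), SNW1 lies at -1.15 with siRNA 28 and at -0.11 with siRNA 30, and RBM45 intervals cross 0 throughout.

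SLIRP, an RNA-binding protein of mitochondria, overlaps SNW1 on the opposite strand and was at up to 325 FPKM. The libraries were made with a strand-specific kit, but whether reads were counted by strand is not given in the sources used here, so reads of the overlapping part could be shared. SLIRP differed between siRNA 28 and siRNA 30 by 0.09 (limma adjusted p = 0.730), and was lower with NRF2 siRNA in H460 (-0.97, adjusted p = 0.0342) and not called in A549 (-0.17) or H2023 (-0.35). C14orf178, a non-coding gene that also overlaps SNW1, was at most 0.0593 FPKM.

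The 4 genes whose pattern over the 12 libraries was most like that of SNW1, by Pearson correlation after subtraction of each line's mean, were CCNG1, SLC25A39, PRDM4 and SIK3 (r = 0.978 to 0.971 of 11571 genes). CCNG1 encodes cyclin G1, SLC25A39 the mitochondrial glutathione carrier, PRDM4 a zinc finger protein and SIK3 a salt-inducible kinase. Their differences, siRNA 28 minus siRNA 30, were -0.75, -0.87, -0.42 and -0.79 on the log2 scale, and none was called in that comparison (limma adjusted p between 0.137 and 0.235).

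RBM45 (ENSG00000155636.10, chromosome 2 at 178977151 to 179003738, plus strand) was not called in any line. In A549 RBM45 was at 7.25 and 6.55 FPKM in control libraries, 6.31 FPKM with siRNA 28 and 5.78 FPKM with siRNA 30. In H2023 the values were 4.74 and 3.42 FPKM, then 4.67 and 3.64 FPKM, and in H460 5.26 and 5.85 FPKM, then 4.16 and 3.82 FPKM. The groups overlapped in H2023 and did not overlap in A549 or H460, where 20.5 and 31.6% of all genes were separated in the same direction.

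The RBM45 differences were -0.17 in A549 (95% interval -0.54 to 0.21, limma adjusted p = 0.696), 0.03 in H2023 (interval -0.61 to 0.66, adjusted p = 0.971) and -0.39 in H460 (interval -1.02 to 0.23, adjusted p = 0.338). The average over lines was -0.18 (interval -0.43 to 0.07, adjusted p = 0.264), and the exact permutation p was 0.120. A fall of more than 1.02 in a line, or of more than 0.43 on average, lay outside these intervals. Between siRNA 28 and siRNA 30 RBM45 differed by 0.16 (adjusted p = 0.625). Genes with the most similar pattern were KLHL23, RTF2, ODC1, the rate-limiting enzyme of polyamine synthesis, and DHRS13 (r = 0.946 to 0.924). Of these, KLHL23 and ODC1 were called lower in H460, at -1.08 and -1.42 on the log2 scale, and neither in A549 or H2023. Of all genes 6.86% were called lower in H460, against 0.554 and 0.583% in A549 and H2023. The genes were chosen for likeness to RBM45 in these same libraries.

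NR0B2 (ENSG00000131910.4, chromosome 1 at 27237980 to 27240466, minus strand) was at 1.28 FPKM or less in every library. In A549 it was at 0.0282 and 0.164 FPKM in control libraries, 1.28 FPKM with siRNA 28 and 0.250 FPKM with siRNA 30. In H2023 it was listed at 0 in both control libraries and with siRNA 30, and at 0.530 FPKM with siRNA 28. In H460 it was listed at 0 in all 4 libraries. It reached 1 FPKM in 1 of 12 libraries, did not pass the filter in any line and was not tested by limma, and the exact permutation test of its mean within-line difference gave p = 0.167, which with the tied values is the smallest it can give for NR0B2, so it could not pass a threshold of 0.05. The A549 difference of 0.63 on the log2(FPKM + 1) scale, with no test, was 1.92 with a pseudocount of 0.1 and thus set by that choice. NUDC, a dynein-associated chaperone, overlaps NR0B2 on the opposite strand and was at up to 255 FPKM, so the part that shared reads have in the low NR0B2 values was not tested.

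Because FPKM is per length, the members could be ordered by level within a library. In control cells of A549, SNW1 (49.9 ± 4.37 FPKM) was above NR0B1 (32.5 ± 3.62), which was above RBM45 (6.90 ± 0.492, SD, n = 2 each), with NR0B2 last. In control H2023 cells, SNW1 (48.1 ± 2.53) and NR0B1 (50.3 ± 4.39) did not differ beyond their spread, nor did they in H460 (82.8 ± 12.3 and 83.7 ± 5.21), and RBM45 was lower in both (4.08 ± 0.935 and 5.56 ± 0.411). With NRF2 siRNA the order changed for NR0B1. It was below RBM45 in A549 (2.46 against 6.05 FPKM) and in H2023 (1.89 against 4.15 FPKM), and above it in H460 (7.73 against 3.99 FPKM).

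The ratio of NR0B1 to RBM45 FPKM was 4.84 and 4.57 in A549 control libraries and 0.353 and 0.465 with NRF2 siRNA. It was 11.3 and 13.8 against 0.468 and 0.438 in H2023, and 15.2 and 14.9 against 2.04 and 1.82 in H460. The ratio of NR0B1 to SNW1 was 0.641 to 1.18 in the 6 control libraries and 0.0333 to 0.352 in the 6 knockdown libraries. Among genes at 1 FPKM or more in a library, NR0B1 stood at the 77.0 to 90.1 percentile in control libraries and at the 8.04 to 41.7 percentile in knockdown libraries, while RBM45 stayed between the 22.01 and 37.5 percentile.

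The authors' mean normalized counts over the 4 libraries of a line, which carry no error, were 1126, 685 and 1107 for NR0B1 in A549, H2023 and H460. They were 3107, 1282 and 1760 for SNW1, 406, 127 and 134 for RBM45, and 16.2, 2.46 and 0 for NR0B2. RBM45 therefore rests on far fewer reads than SNW1, and NR0B2 on almost none.

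Among the nuclear receptors, ligand-regulated or orphan transcription factors, NR0B1 was the only receptor called lower in each line. Of 48 receptors listed, 47 were found and 34, 31 and 30 were tested in A549, H2023 and H460. In A549 and H2023, 1 receptor was called lower, which was NR0B1, and 0 higher, with medians of -0.0015 and -0.10 over the receptors against 0.02 and 0.02 over all genes. In H460, 1 was lower, again NR0B1, and 1 was higher, with a median of 0.16 against -0.01 over all genes. Of all genes 0.554, 0.583 and 6.86% were called lower and 0.122, 0.327 and 7.12% higher in A549, H2023 and H460. The receptor called higher in H460 was NR2F1, also called COUP-TFI, at 1.41 (limma adjusted p = 0.0337), which was at 0.32 in A549 and 0.98 in H2023 without a call. HNF4A, a hepatocyte and gut regulator tested only in A549, was at -1.04 (adjusted p = 0.145). RARB, a retinoic acid receptor, was at -0.41, -1.65 and -0.75 without a call in a line, and was lower on average (-0.94, limma adjusted p = 0.00903). In that fit of all 12 libraries, 6 of 27 receptors were called lower and 2 higher, beside 14.5 and 15.2% of all genes. At an unadjusted p under 0.05 there were 6, 9 and 6 receptors, beside 13.3, 16.9 and 33.7% of all genes in A549, H2023 and H460. Leaving out 1 library at a time gave 1 to 3 receptors called in A549, 0 to 9 in H2023 and 0 to 8 in H460, so a missing call does not show that a receptor did not change.

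**Figure D3:**
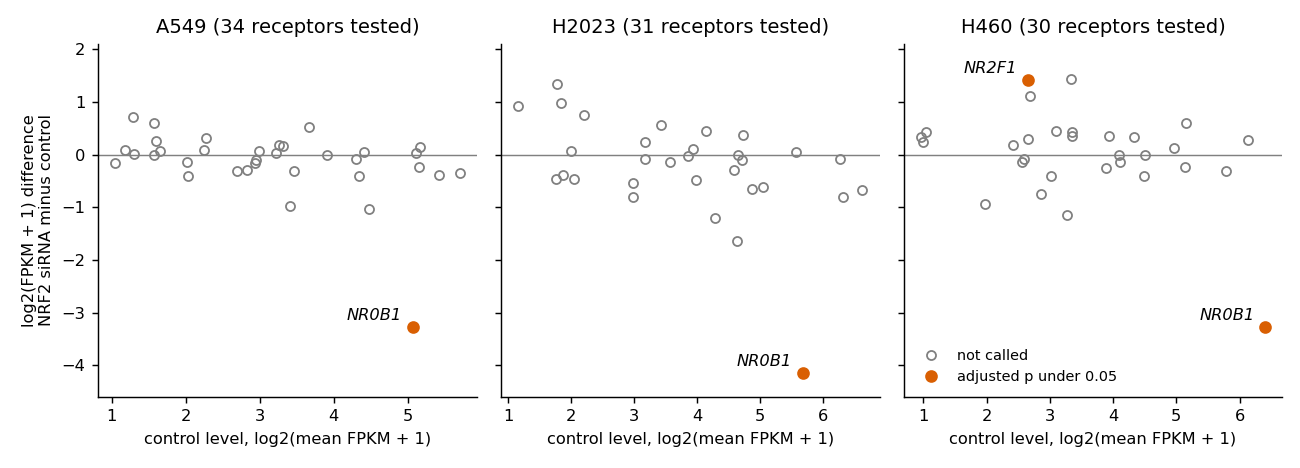
Difference of each tested nuclear receptor, NRF2 siRNA minus control on the log2(FPKM + 1) scale, against its control level as log2(mean FPKM + 1), in A549, H2023 and H460. Orange points passed the threshold, and NR0B1, at -3.28, -4.16 and -3.28, stands well below the other receptors, of which the lowest is RARB in H2023 at -1.65.

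Proteins through which NR0B1 or NR0B2 are reported to repress, such as histone deacetylase subunits, were then counted. Of 10 corepressors tested in each line, 0 were called by limma in A549, H2023 or H460, with medians of -0.02, -0.01 and -0.27, and 0, 0 and 3 were at an unadjusted p under 0.05, the 3 of 10 in H460 beside 33.7% of all genes. The H460 median was -0.08 without the siRNA 28 library, -0.15 without the first control library and -0.12 with mitochondrial transcripts left out. On average over the lines 1 of the 10, HDAC2, was called lower (-0.30, limma adjusted p = 0.0407) and 0 higher, beside 14.5 and 15.2% of all genes. Over the 12 alternatives the number called was 0 in A549, 0 or 1 in H2023 and 0 to 2 in H460. In A549, H2023 and H460, COPS2 was at -0.28, -0.36 and -0.31, HDAC2 at -0.09, -0.20 and -0.62 and EID1 at 0.14, 0.05 and 0.62.

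Steroidogenic genes, the class that NR0B1 represses in the adrenal gland and gonads, were mostly not measurable. Of 13 listed, 4 were tested in each line and 0 were called by limma, with 0, 1 and 1 at an unadjusted p under 0.05, beside 13.3, 16.9 and 33.7% of all genes. NR5A1, the steroidogenic factor that NR0B1 binds, was at most 0.0990 FPKM, STAR at most 0.102 FPKM, CYP11A1 at most 0.722 FPKM and CYP17A1 at most 0.129 FPKM in the 12 libraries, and MC2R was listed at 0 in all. The 4 tested were AMH (0.29, 0.73 and 1.64 in A549, H2023 and H460, limma adjusted p at least 0.0853 in a line, and higher on average at 0.89, adjusted p = 0.0360), FDXR (-0.25, 0.66 and 0.41), SCARB1 (-0.01, 0.58 and -0.04) and FDX1 (-0.09, -0.41 and -0.02).

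SNW1 is a subunit of the spliceosome together with the PRPF19 complex. Of 17 such factors, all tested in the 3 lines, 0 were called by limma in A549 or H2023 (1 and 0 at an unadjusted p under 0.05) and 1 in H460 (5 unadjusted, beside 33.7% of all genes). The number called in H460 was 0 to 7 over the 12 alternatives run. That 1 was PRPF19, the ubiquitin ligase of the complex, at -0.31, -0.11 and -1.23 (limma adjusted p = 0.0309 in H460). In H460 all 17 had negative values with a median of -0.51, against -0.01 over all genes, of which 6.86% were called lower. The median was -0.10 in A549 and -0.11 in H2023. Over the 12 alternatives it was -0.62 to -0.36 in H460 and -0.16 to -0.0035 in H2023. With mitochondrial transcripts left out the median of all genes in H460 was 0.12. PPIL1, a prolyl isomerase that binds SNW1, was the other factor of the list with a low value for siRNA 28 against siRNA 30 (-1.12 beside -1.04 for SNW1, adjusted p = 0.133). CTNNBL1 was at -0.18, -0.11 and -0.80 (adjusted p = 0.0549 in H460). On average 4 of the 17 were called lower and 0 higher, beside 14.5 and 15.2% of all genes.

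Of 15 transcription factors and cofactors that SNW1 is reported to bind, 14, 15 and 15 were tested, and 0 were called by limma in A549 or H2023. At an unadjusted p under 0.05 there were 0, 3 and 3, beside 13.3, 16.9 and 33.7% of all genes. The 1 called in H460, where 7.12% of all genes were called higher, was SMAD3, a mediator of TGF-beta signals (1.24, limma adjusted p = 0.0294), which was at 0.15 in A549 and 0.24 in H2023. Over the alternatives 0, 0 to 4 and 0 to 3 were called. The vitamin D receptor VDR was at 0.59, 1.34 and -0.14 and MAML3, a NOTCH coactivator, at -0.46, -1.32 and 0.34, without a call. The H460 value of MAML3 was 1.30 without the siRNA 28 library and -0.61 without the siRNA 30 library. On average 1 of 14 was called lower and 1 higher, beside the same shares of all genes.

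RBM45 was grouped with RNA-binding proteins of the same inclusions and with KEAP1 pathway proteins. Of 13 listed, 12 were found and tested, and 2, 1 and 4 were called lower and 0, 0 and 1 higher in A549, H2023 and H460, with medians of -0.27, -0.10 and -0.89. Of all genes 0.554, 0.583 and 6.86% were called lower, and over the 12 alternatives the number called in the list was 0 to 3, 0 to 6 and 0 to 8. NFE2L2 itself, called in all 3 lines, is 1 of them. SQSTM1, the autophagy receptor p62 that binds KEAP1, fell by 2.31 in A549 (limma adjusted p = 0.00338) and by 2.62 in H460 (adjusted p = 0.0195), and was at -1.94 in H2023 (adjusted p = 0.0608). KEAP1 fell by 1.62 in H460 (adjusted p = 0.0158) and was at -0.65 in A549 and -1.27 in H2023. TIA1, a stress granule protein, rose by 1.11 in H460 (limma adjusted p = 0.0367). Of all genes 0.122, 0.327 and 7.12% were called higher in A549, H2023 and H460. HNRNPA1 was at -1.03, -1.32 and -2.41 without a call in a line (average -1.58, limma adjusted p = 0.0335), and its reads can be shared with processed pseudogenes. It was higher with siRNA 28 than with siRNA 30 by 2.155 (adjusted p = 0.123), so these values average 2 unlike libraries. Without the siRNA 28 library HNRNPA1 was at -1.88, -2.52 and -3.58 (limma adjusted p = 0.00514, 0.000164 and 0.00223, where 1.43, 5.91 and 13.7% of all genes were called lower), and without the siRNA 30 library at -0.18, -0.11 and -1.23. On average 7 of the 12 were called lower and 1 higher, beside 14.5 and 15.2% of all genes.

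NR0B1 is 1 of 6 genes that the study used as its NRF2 score, chosen as known targets. All 6 were called lower in A549 and in H460 and 5 in H2023, beside 0.554, 6.86 and 0.583% of all genes. Their medians were -2.58, -3.09 and -2.97 in A549, H2023 and H460, against 0.02, 0.02 and -0.01 over all genes. Without a filter on low values 0 were called in any line, where no gene was. NR0B1 had the most negative mean difference of the 6, followed by GCLM, the modifier subunit of glutathione synthesis, at -2.73, -3.13 and -4.01, and TXNRD1, thioredoxin reductase, at -2.75, -3.04 and -3.32. NQO1 was at -2.38, -3.15 and -1.95.

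The 8 genes whose pattern was most like that of NR0B1 over the 12 libraries were TXN, PTGR1, CYP4F11, SRXN1, OSGIN1, the unnamed ENSG00000231683, LUCAT1 and GCLC (r = 0.996 to 0.982 of 11571 genes). TXN encodes thioredoxin, PTGR1 prostaglandin reductase, SRXN1 sulfiredoxin and GCLC the catalytic subunit of glutathione synthesis, and LUCAT1 is a long non-coding RNA. Each of the 8 was called lower in all 3 lines, which their choice by likeness to NR0B1 in the same libraries largely fixes, with average differences from -4.09 for OSGIN1 to -1.91 for TXN. CYP4F11 has close paralogs, so its reads can be shared.

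Genes that lie within 1 Mb of a member gave the local comparison. Around NR0B1 there were 22, of which 2, 6 and 6 were tested in A549, H2023 and H460 and 0 were called lower by limma (0, 1 and 2 at an unadjusted p under 0.05 in either direction, beside 13.3, 16.9 and 33.7% of all genes). FTLP2, a processed pseudogene of the ferritin light chain 320908 bases away whose reads can be shared with its parent gene, was the lowest, at -1.27 in H2023 (limma adjusted p = 0.105) and -0.89 in H460 (adjusted p = 0.0615). Its mean FPKM was 0.756 in control and 0.0721 in knockdown A549 cells, where it was not tested, 2.19 and 0.308 in H2023, and 1.02 and 0.0934 in H460. MAGEB2, a cancer-testis antigen 84117 bases away, was at up to 72.3 FPKM and at 0.06 in H2023 and 0.15 in H460, and GK, glycerol kinase, was at -0.00012, -0.20 and -0.63. DMD, the dystrophin gene whose end lies 788287 bases away, rose by 1.87 in H460 (limma adjusted p = 0.0224) and was at 0.13 in H2023. The nearest annotated neighbours, MAGEB1 and MAGEB4 on one side and AC005926.1 on the other, were listed at 0, and TASL was at most 0.0370 FPKM.

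Around SNW1, 17, 18 and 17 of 58 neighbours were tested. ALKBH1 and ADCK1, the nearest tested on each side, were at -0.10, -0.29 and -0.52 and at 0.14, 0.22 and 0.02. Apart from SLIRP, the calls were IRF2BPL (1.88, limma adjusted p = 0.0196) and GSTZ1 (1.06, adjusted p = 0.0419), both higher in H460 like 7.12% of all genes, and a Y_RNA copy that was lower in A549 (adjusted p = 0.00338), listed at 0 with either siRNA and whose reads can be shared with other copies. ZMYND19P1, the second nearest on the lower side, was at most 0.0597 FPKM.

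RBM45 and NFE2L2 lie on chromosome 2 with 719667 bases between their ends. Of 52 neighbours of RBM45, 12, 14 and 12 were tested, and NFE2L2 was the only one called, lower in all 3 lines. PDE11A, 4085 bases from RBM45, was at most 1.05 FPKM and OSBPL6 was at -0.32, -0.21 and -0.59, and the other nearest, ENSG00000227241 and RNU5E-9P, were listed at 0. Around NR0B2, 36, 31 and 33 of 97 neighbours were tested. SFN, the p53-induced 14-3-3 sigma, was lower in H2023 (-1.83, limma adjusted p = 0.0242) and at -0.93 and -1.07 in A549 and H460. In H460 CEP85 was lower (-1.14, adjusted p = 0.0325), and SH3BGRL3 (1.67, adjusted p = 0.0247) and IFI6 (1.14, adjusted p = 0.0475) were higher. Of all genes 0.583% were called lower in H2023, and 6.86% lower and 7.12% higher in H460. At an unadjusted p under 0.05 (limma) there were 5, 2 and 15 of these neighbours, beside 13.3, 16.9 and 33.7% of all genes. NUDC was at 0.04, 0.11 and -1.23 (adjusted p = 0.0517 in H460). The nearest neighbours GPATCH3 and GPN2 were between -0.42 and 0.24 in the 3 lines, and KDF1 and RPL12P13 were at most 0.331 FPKM.

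**Figure D4:**
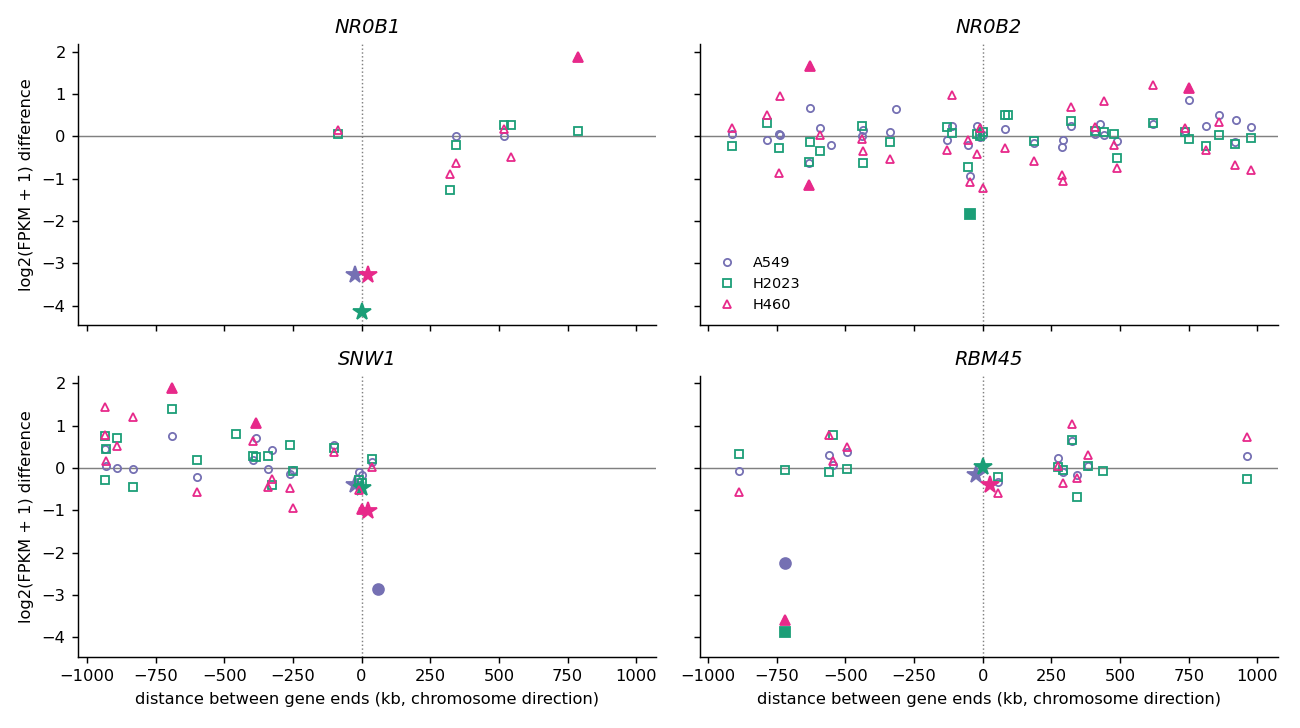
Difference of each tested gene within 1 Mb of NR0B1, NR0B2, SNW1 and RBM45, NRF2 siRNA minus control on the log2(FPKM + 1) scale, against the distance between gene ends in kb in chromosome direction, for A549 (circles), H2023 (squares) and H460 (triangles). Filled symbols passed the threshold and stars at 0 mark the member itself, spread sideways for legibility, except NR0B2, which was not tested. NR0B1 lies below each tested neighbour, at -3.28 to -4.16, and the low filled symbols left of RBM45 are NFE2L2.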

How the data were processed

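RNA-seq of 12 libraries, 2 per line and treatment, was used. The authors deposited 1 table of FPKM values per library and 1 table per line of DESeq2 results, of which only the mean normalized count (a signal over the 4 libraries of a line, with no error) was used. The other 15 columns hold the authors' fold changes, errors and p-values and were not used. The study's methods name TopHat and Cufflinks with hg19, and the submitters' processing notes list cutadapt 1.15, STAR 2.5.3a, Cuffnorm, HTSeq and DESeq2, so the aligner behind the FPKM values is unsure. FPKM removes length and library size but not composition.

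Values under 1e-06 FPKM were set to 0 (12710 values). Gene IDs were matched to GENCODE on GRCh37, and 96.1% had a symbol. No pair of libraries was identical. limma 3.58.1 in R 4.3.3 was fitted to log2(FPKM + 1) with a prior variance trend, per line for genes at 1 FPKM or more in at least 2 of 4 libraries, and over 12 libraries for genes passing this in every line. Fold changes of low genes are understated on this scale. Residual degrees of freedom were 2 per line, 6 over 12 libraries, 2 between the siRNAs and 3 in the fit with a mean per line and siRNA. Scripts were tested on simulated data. Figures used Python 3.11.15 and matplotlib 3.10.9. Read depth is known only relative to the other libraries of a line, so its precision is carried by the replicate spread.

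The members, gene lists and tests were chosen with earlier results of these data known. Named were the 4 members and NFE2L2, up to 4 genes per list with the largest mean difference, neighbours within 1 Mb that were called, overlap or are the nearest 2 on each side, and the genes most similar to a member. TIA1, FTLP2, MAGEB2, GK and the untested steroidogenic genes were named after their values were seen. Some listed genes are counted but not reported by name here. Promoters came from RefSeq, and 3 of the 4 members had an entry. Alternatives covered the pseudocount, filters, trend, scaling, a replicate block, leaving out each library and joint fits.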

Additional observations from a re-analysis of the deposited data

How the results depend on the processing

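NR0B1 stayed below control in every alternative run, and its average difference (-3.93 to -3.51) passed the threshold in all 22. Without a filter on low values NR0B1 lost its call in A549 (-3.28, adjusted p = 0.118), H2023 (-4.16, adjusted p = 0.165) and H460 (-3.28, adjusted p = 0.108), where limma called 0 genes in any line among the 29735 to 35376 then tested (3370, 3661 and 5603 at an unadjusted p under 0.05). With each library left out NR0B1 ranged from -3.39 to -3.17 in A549, -4.30 to -4.01 in H2023 and -3.41 to -3.16 in H460. In 1 fit of all 12 libraries it was called in each line. Its control difference between H2023 and H460 lost its call with median-ratio scaling (-0.61) and with mitochondrial transcripts left out (-0.51), and ranged from -0.81 to -0.64 with a library left out.

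SNW1 passed the threshold on average without the siRNA 30 libraries (-1.15, adjusted p = 0.000192, chosen after seeing the data), and without the siRNA 28 libraries was at -0.11 (adjusted p = 0.459). In all, SNW1 passed on average in 3 of the 22 alternatives, at least 1 of them with a single library left out. With 1 library left out its average ranged from -0.87 to -0.39 and its A549 value from -0.77 to -0.02. Its H2023 value then ranged from -0.94 to -0.00877 and its H460 value from -1.73 to -0.30. Between the siRNAs it passed in the fit of all 12 libraries (-1.04, adjusted p = 0.00186) and in no other alternative. RBM45 was never called, and its H2023 value ranged from -0.16 to 0.21 with a library left out, turning negative without the second control library (-0.16) or the siRNA 28 library (-0.12). The causes were not tested.

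Same-numbered libraries deviated together only in part (r = -0.03, 0.31 and 0.16 in A549, H2023 and H460), so they were not taken as pairs, and the knockdown numbers also stand for different siRNAs. Whether same-numbered libraries shared a culture day is not given in the sources used here. With the replicate block NR0B1 had adjusted p of 0.00717, 0.000444 and 2.97e-05 in the 3 lines, and no call of a member changed. The block moved the genes called lower from 82 to 298 and higher from 46 to 413 in H2023, from 922 to 1530 and 957 to 1647 in H460, and from 77 to 65 and 17 to 25 in A549. Of 440 values for named genes called per line, 100 lost the call in an alternative and 0 changed sign. Most losses came without a filter or without 1 control library. Leaving out mitochondrial transcripts moved the median of all genes in H460 from -0.01 to 0.12, with 583 genes called lower and 1189 higher there, against 922 and 957.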
